A study of Mus musculus with 2 samples.

Results

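Mouse chromosome 11 carried 3952 of the 35848 optimal TCF12 peaks, 11.02% of the list, in 4.63% of the summed length of chromosomes 1 to 19 and X. The members are all rows of the optimal list placed on chromosome 11, chosen by position alone, and they are described by the 1-Mb bin in which their summit, the position of strongest signal, lies. The study mapped TCF12 by ChIP-seq, sequencing of chromatin precipitated with an antibody to TCF12, in CH12.LX, an immortalised B-cell lymphoma line from the mouse strain B10.H-2aH-4bp/Wts, in 2 biological replicates that form 1 group, with no treatment named in the labels. Each replicate has its own biosample in the labels, both from 1 donor and line, so the values describe that line, and the control named as possible there was not analysed here. The optimal peaks are those that passed the authors' filter on the irreproducible discovery rate (IDR), a measure of how well peak ranks repeat. Behind them stand relaxed lists of 300000 peaks for the pooled data and for each replicate, which include weak peaks and background. Of these, 32918 pooled, 30245 replicate 1 and 28086 replicate 2 peaks lay on chromosome 11. Read depth is unknown, expression was not measured, and intervals treat neighbouring peaks as independent and so hold for counting error alone.

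TCF12 (HEB) belongs to the E proteins, transcription factors of the basic helix-loop-helix class that bind the E-box CANNTG in pairs, among themselves or with partners of a given tissue. E proteins are known for directing B and T lymphocyte development, together in B cells with EBF1 and PAX5. Mouse chromosome 11 is rich in genes and carries several loci of lymphocyte biology: Ebf1, the B lineage factor gene, Ikzf1 and Ikzf3 of the Ikaros family, Cd79b, a signalling chain of the B cell receptor, and the T helper cytokine genes Il4, Il13 and Il5. It also carries gene clusters of other tissues, among them the alpha globin genes, the type I keratins, skeletal muscle myosins and the Hoxb genes.

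The windows below show the sequence under strong peaks along the chromosome. They come from the mm9 list of 23575 peaks, 2648 of them on chromosome 11, because genome sequence was used for mm9 only. Each gives the plus strand from 50 bases before to 50 bases after an mm9 summit in an intron or between genes, with CAGCTG and CACCTG on either strand in capitals (CAGGTG is CACCTG read on the other strand). The top of the list is shown first, in the order of signal.
Rab37 intron, chr11:114968094-114968194: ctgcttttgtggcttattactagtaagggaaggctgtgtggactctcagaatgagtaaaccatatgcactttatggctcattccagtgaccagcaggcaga
Gas7 intron, chr11:67402542-67402642: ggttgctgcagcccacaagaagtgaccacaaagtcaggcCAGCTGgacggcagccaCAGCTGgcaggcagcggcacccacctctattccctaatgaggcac
Upstream of Cdkn2aipnl, chr11:51749699-51749799: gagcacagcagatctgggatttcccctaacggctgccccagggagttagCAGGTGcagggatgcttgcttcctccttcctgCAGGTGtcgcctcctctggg
Cyth1 intron, chr11:118073169-118073269: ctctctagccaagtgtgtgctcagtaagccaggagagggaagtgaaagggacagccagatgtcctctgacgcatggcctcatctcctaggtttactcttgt
Cyfip2 intron, chr11:46118498-46118598: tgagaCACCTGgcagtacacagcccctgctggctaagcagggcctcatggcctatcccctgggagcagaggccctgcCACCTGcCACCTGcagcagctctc
Between genes near Grb7, chr11:98320654-98320754: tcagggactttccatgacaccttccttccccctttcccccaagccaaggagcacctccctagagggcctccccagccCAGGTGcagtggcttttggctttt
Of these 6, the strongest mm9 peaks of the chromosome outside promoters and exons, 4 held CAGCTG or CACCTG. The Gas7 window held 2 copies of CAGCTG, and the Cyfip2 window 3 copies of CACCTG. The Rab37 and Cyth1 windows held neither, although they held 1 and 2 other CANNTG sequences.

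The next windows are the strongest mm9 peaks in introns of some of the genes that carried many summits.
Prkca intron, chr11:108065707-108065807: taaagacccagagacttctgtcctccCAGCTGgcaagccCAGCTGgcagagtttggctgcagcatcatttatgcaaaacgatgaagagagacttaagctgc
Ksr1 intron, chr11:78917042-78917142: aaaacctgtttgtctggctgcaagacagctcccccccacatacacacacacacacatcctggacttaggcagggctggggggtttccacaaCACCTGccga
Ebf1 intron, chr11:44578681-44578781: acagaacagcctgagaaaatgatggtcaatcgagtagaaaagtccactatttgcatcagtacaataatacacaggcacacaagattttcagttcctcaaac
Ikzf3 intron, chr11:98338542-98338642: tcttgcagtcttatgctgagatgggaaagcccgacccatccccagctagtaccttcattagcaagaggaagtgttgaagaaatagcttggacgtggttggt
The window in Prkca, the protein kinase C alpha gene, held 2 copies of CAGCTG, and that in Ksr1, the gene of a scaffold of the RAF-MEK-ERK cascade, held 1 CACCTG. The Ebf1 and Ikzf3 windows held no CANNTG at all within 50 bases of the summit. Windows taken in the same way in Septin9, Msi2, Ikzf1 and Grap are not printed. Those in Septin9, Msi2 and Ikzf1 held neither CAGCTG nor CACCTG, and that in Grap held 1 CAGCTG. The Ebf1 window lay 148 kb from the 5' end of the gene. It is thus another site than the strongest optimal summit of Ebf1, which lay 45.6 kb inside the gene.

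Chromosome 11 had the highest density of optimal summits of the 20 chromosomes. It carried 32.4 per Mb, while the others ranged from 2.74 on X to 17.6 on chromosome 19, with a median of 13.4. Against all other chromosomes together the density was 2.55 times as high (exact Poisson interval 2.47 to 2.64), and against the other autosomes 2.41 times (2.33 to 2.49). The number of copies of each chromosome in CH12.LX was not analysed here, and density is per Mb of the reference. Each replicate gave the same picture when as many of its strongest relaxed peaks were taken as the optimal list holds. The ratio was 2.53 (2.45 to 2.62) in replicate 1, with 3928 peaks on the chromosome, and 2.64 (2.55 to 2.72) in replicate 2, with 4068. The mm9 list gave 21.7 peaks per Mb on chromosome 11 and 8.31 elsewhere, a ratio of 2.61 (2.51 to 2.72).

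Weak peaks were denser on chromosome 11 by the same factor. Weak peaks, here pooled relaxed peaks without any overlap with an optimal peak, numbered 28540 on the chromosome, or 234 per Mb, and 92.4 per Mb elsewhere. Their ratio was 2.53 (2.503 to 2.565). The share of pooled relaxed peaks that overlapped an optimal peak was accordingly much alike, 13.3% (95% Wilson interval 12.9 to 13.7) on chromosome 11 and 13.17% (13.04 to 13.30) elsewhere, a difference of 0.133 percentage points (Newcombe interval -0.252 to 0.525). The full relaxed lists of the replicates gave lower ratios of 2.31 (2.28 to 2.34) and 2.13 (2.10 to 2.15). The median signal of relaxed peaks, in the caller's own units, was the highest of all 20 chromosomes in both replicates, at 5.63 in replicate 1 and 3.81 in replicate 2, against medians of 5.23 and 3.46 over the other chromosomes. In the pooled relaxed list it was 7.92, below the 8.03 of X alone. The level of weak peaks thus moved with the density of optimal peaks, and its part in that density was not tested. Chromosome 16 had the next highest density of weak peaks, 162 per Mb, with 17.1 optimal summits per Mb.

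**Figure D1:**
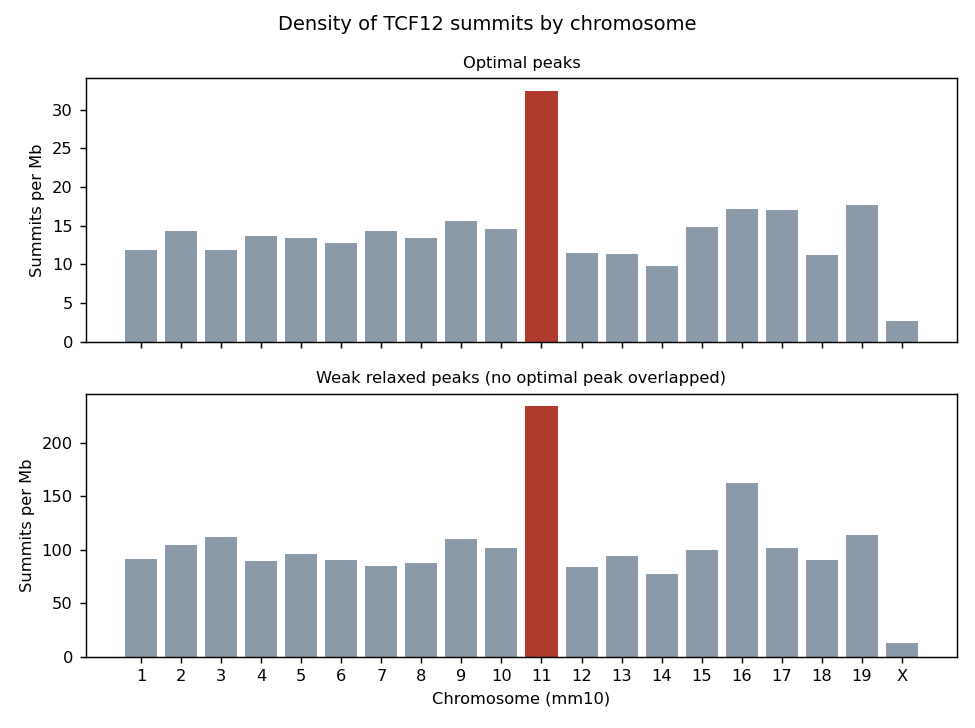
Summits per Mb on each chromosome (x axis) for optimal peaks (top) and for weak relaxed peaks (bottom), with chromosome 11 in red. Chromosome 11 stands at 32.4 optimal and 234 weak summits per Mb, above every other chromosome in both.

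The number of genes did not match the number of peaks. Chromosome 11 held 1571 of the protein-coding genes used, 12.9 per Mb, less than the 13.7 per Mb of chromosome 7, which carried 14.3 optimal summits per Mb. It had 2.52 optimal summits per gene, against 1.65 on the other chromosomes, a ratio of 1.53 (1.48 to 1.58), and only chromosome 16 had more, at 2.54. Bins were therefore set side by side with bins of the other autosomes that hold as many gene 5' ends. In bins with 6 to 15 genes, chromosome 11 had a mean of 35.7 optimal summits (SD 25.1, 36 bins) and the others 18.7 (SD 14.1, 735 bins). In bins with 16 to 30 genes the means were 53.0 (SD 17.6, 27 bins) and 28.5 (SD 16.9, 256 bins), and in bins with over 30 genes 62.9 (SD 24.5, 14 bins) and 41.0 (SD 26.0, 90 bins). The SDs are wide and the ranges of bins overlap. The ratio of means lay between 1.53 and 1.91 in the 4 classes with genes. For weak peaks it lay between 1.99 and 2.23 in the same classes.

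Bins without any gene were few. The 11 such bins of chromosome 11 that held a relaxed peak had a mean of 0.727 optimal summits (SD 1.35), below the 1.18 (SD 4.57) in 269 bins elsewhere. They had 51.5 weak peaks (SD 37.3) against 28.2 (SD 37.6), a ratio of 1.83. Both differences are smaller than the SD over bins.

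**Figure D2:**
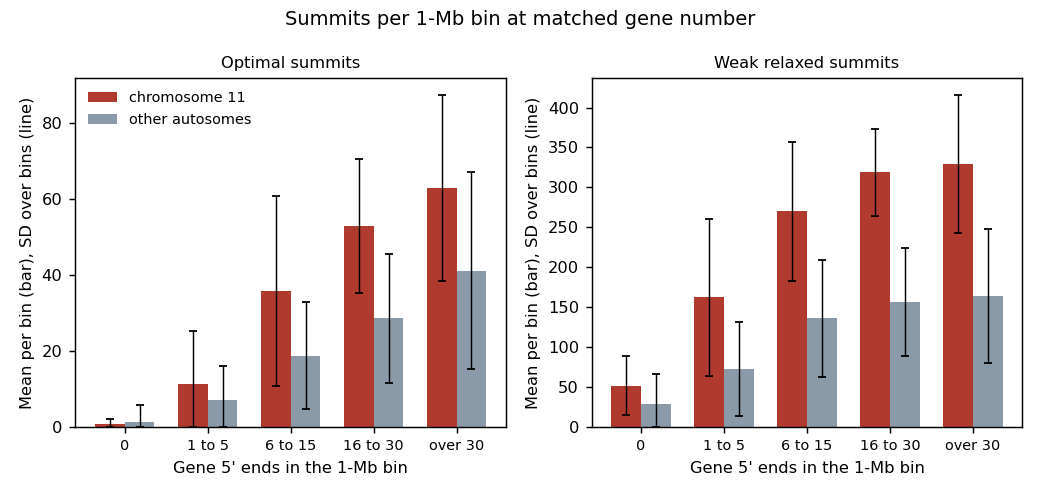
Mean number of optimal (left) and weak relaxed (right) summits per 1-Mb bin, with SD over bins, for bins grouped by their number of gene 5' ends. In the 4 classes with genes the chromosome 11 mean (red) lies above that of the other autosomes (grey) by 1.53 to 1.91 times for optimal and 1.99 to 2.23 times for weak peaks.

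Among optimal peaks the surplus was greatest for the strongest. Chromosome 11 carried 88 peaks with a signal of 200 or more, 19.2% of all such peaks, at 4.88 times (3.82 to 6.17) the density of the other chromosomes. For signals from 100 to 200 the ratio was 3.88 (3.50 to 4.30), and for 50 to 100 it was 2.57 (2.39 to 2.75). It was lowest for signals from 20 to 50, at 2.26 (2.15 to 2.37), and 2.89 (2.47 to 3.36) for those under 10. The interval of the top class does not meet those of any class under 100. Of the 100 strongest optimal peaks of the series, 24 lay on chromosome 11. The median signal was 36.4 on chromosome 11 and 34.8 elsewhere, and the upper quartiles were 67.9 and 57.6.

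**Figure D3:**
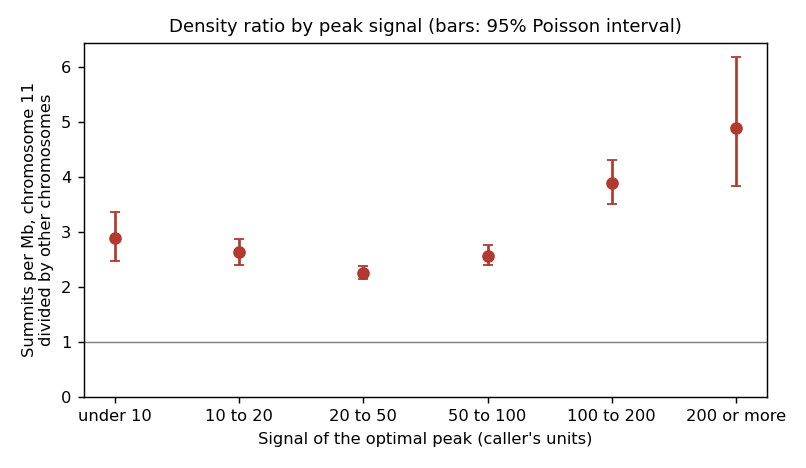
Density of optimal summits on chromosome 11 divided by that on the other chromosomes (y axis), for 6 classes of signal in the caller's units (x axis), with 95% Poisson intervals. The ratio lies between 2.26 and 2.89 for signals under 100 and reaches 4.88 at 200 or more.

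Summits were spread unevenly along the chromosome. The chromosome has 122 bins of 1 Mb, of which the first 3 held no peak of any list and 105 held an optimal summit. Over the 119 bins with relaxed peaks, the median was 27 optimal summits (quartiles 9.5 and 55), against 8 over 2275 bins of the other autosomes. More than 50 summits were found in 33 bins, 27.7% of these, against 3.74% elsewhere. The fullest 12 bins held 26.7% of the summits, and the fullest 27 held 50%. Of the 20 fullest bins of the series, 10 lay on chromosome 11. Across the 119 bins, the count of optimal summits had a Spearman's rho of 0.835 with the number of genes and 0.925 with the number of weak peaks, and the counts of strongest peaks of the replicates had a rho of 0.988 with each other. Neighbouring bins share genes and background, and these values are given as a description.

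**Figure D4:**
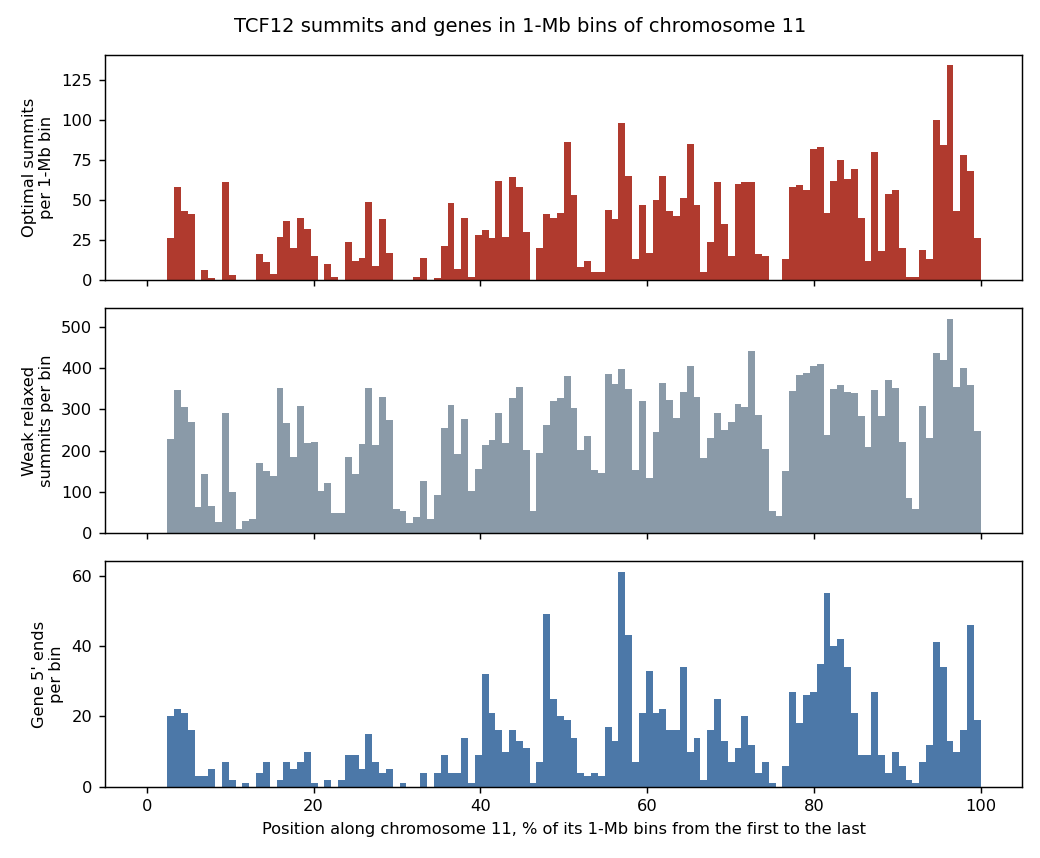
Optimal summits (top), weak relaxed summits (middle) and protein-coding gene 5' ends (bottom) in each 1-Mb bin, ordered along the chromosome as a percentage of its 122 bins. The tallest optimal bin holds 134 summits near the far end. The first 3 bins hold no weak peak, and every other bin holds at least 11, including those without an optimal summit.

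The surplus was not limited to 1 stretch. In 12 segments of up to 10 Mb from 3 Mb onward, the number of optimal summits was 1.40 to 2.22 times that of autosomal bins with the same class of gene number. The lowest value was in the segment from 33 to 43 Mb, with 81 summits, and the highest in that from 113 to 122 Mb, with 565. Weak peaks had ratios from 1.70, in the segment from 3 to 13 Mb, to 2.43, again from 113 to 122 Mb, and were above 1 in all 12. The share of relaxed peaks that overlapped an optimal peak ran from 6.73% in the segment from 33 to 43 Mb to 16.4% from 93 to 103 Mb.

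The fullest bin, from 117 to 118 Mb, held 134 optimal summits beside 13 gene 5' ends, and each replicate alone placed its fullest bin there, with 127 and 134. Only 14 of these summits were at promoters, within 1 kb of an annotated 5' end. Septin9, the gene of a cytoskeletal GTPase, had 39 summits between 10 kb upstream of its 5' end and its 3' end, the strongest with a signal of 244 from 136 in replicate 1 and 115 in replicate 2. Socs3, the gene of a suppressor of cytokine signalling, had 3, with 208 at 5.95 kb upstream of its 5' end from 159 and 52.0 in the replicates. Replicate 1 was the higher in both, and by more at Socs3, which had 6 summits without replicate 2.

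The bin from 115 to 116 Mb held 100 summits, including the strongest of the chromosome. That peak lay in Rab37, a small GTPase gene of secretory vesicles, from 115106641 to 115107030, with a pooled signal of 473 from 248 and 227 in the replicates. Rab37 had 18 summits. A peak with a signal of 331 stood over the 5' end of Mrps7, a mitochondrial ribosomal protein gene next to Gga3. The bin from 116 to 117 Mb held 84 summits, with a signal of 262 at H3f3b, a gene of the replacement histone H3.3, 1.33 kb inside the gene.

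The bin from 69 to 70 Mb differed from these in its promoters. It held 98 summits and 61 gene 5' ends, and 53 of the summits were at promoters. Polr2a, the gene of the largest subunit of RNA polymerase II, had its peak 5 bp from the 5' end with a signal of 276, from 170 in replicate 1 and 113 in replicate 2. Trp53, the gene of the tumour suppressor p53, had 7 summits, the strongest 11 bp from the 5' end with a signal of 135 from 83.9 and 52.0. Without replicate 1, Trp53 had 4 summits.

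The bin from 61 to 62 Mb held 86 summits, 24 of them in the window of Grap, the gene of a GRB2-related adaptor of lymphocyte receptors that spans only 19.5 kb. This is 81.5 summits per 100 kb of window, against 22.6 at Septin9. With overlapping peaks merged, Grap kept 18. Its strongest peak, 8.55 kb upstream of the 5' end, had a signal of 311 from 170 and 140 in the replicates. Tnfrsf13b, the gene of TACI, a receptor for the B cell survival factors BAFF and APRIL, had 12 summits in the same bin, the strongest 169, at 472 bp from the 5' end.

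Of the 3 remaining bins among the fullest 8, the bin from 79 to 80 Mb held 85 summits, 32 of them at Ksr1, with a signal of 329 from 200 and 128 in the replicates. The bins from 97 to 98 Mb and from 98 to 99 Mb held 82 and 83. The latter contained Ikzf3, the gene of the Ikaros family factor Aiolos of maturing B cells, with 19 summits, and Mien1, with a signal of 304 at 1.20 kb upstream. Kpnb1, the nuclear import receptor gene importin beta, had a peak of 145 at 15 bp upstream of its 5' end in the bin from 97 to 98 Mb.

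Other stretches of the chromosome held few summits. The longest run of bins with at most 2 summits ran from 36 to 40 Mb, where Tenm2, a neuronal adhesion gene, has its 5' end. It held 2 optimal summits among 180 pooled relaxed peaks. From 13 to 16 Mb no optimal summit was found among 76 relaxed peaks, with the 5' end of 1 gene, Pom121l12. From 111 to 113 Mb, around Kcnj2, a potassium channel gene, and Sox9, a cartilage and testis factor gene, there were 4 among 148. Relaxed peaks were thus called in each of these runs, with few that passed the IDR step.

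Of the 15 strongest peaks, 3 were at promoters, beside 26.9% of all optimal peaks of the chromosome. Besides that over Mrps7, these were a peak 96 bp upstream of 0610010K14Rik, with a signal of 349, and a peak 67 bp inside Slc25a39, a mitochondrial carrier gene, with a signal of 328. The peak at 0610010K14Rik also lay 8.22 kb upstream of Bcl6b, a gene related to the germinal centre repressor Bcl6. In gene bodies, the peak in Gas7 reached 453 from 243 and 206 in the replicates. That in Cyfip2, a gene of the actin-regulating WAVE complex, reached 371 from 205 and 163. Peaks in Pik3r5, a regulatory subunit of PI3K gamma, and in Cyth1, an ARF exchange factor of the cytohesin family, reached 360 and 354. All 15 were higher in replicate 1 than in replicate 2, as were 84.9% of the chromosome's peaks found in both.

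Of the 15, 3 fell in the bin from 46 to 47 Mb: that in Cyfip2, a peak of 326 in Adam19, a membrane metalloprotease gene, and a peak of 338 that lies 5.50 kb upstream of Fam71b. Of these 15, the peak farthest from a 5' end, 327 kb upstream of Meis1, a homeobox gene of blood stem cells, lay outside genes with a signal of 327 from 182 and 142. Peaks 31.4 kb upstream of Cdkn2aipnl and 81.2 kb from the 5' end of Sar1b, a COPII vesicle coat GTPase gene, both in the bin from 51 to 52 Mb, had signals of 393 and 329. Another of the 15 lay in Spata48, in the bin of Ikzf1, with a signal of 331.

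Over all members, 26.9% (25.5 to 28.3) of summits lay at promoters, 42.9% (41.4 to 44.4) in gene bodies and 30.2% (28.8 to 31.7) outside genes. On the other chromosomes the shares were 29.2%, 38.1% and 32.8%. The gene body share was higher by 4.81 points (3.18 to 6.45), and a like difference, 4.45 points (3.84 to 5.07), was present in weak peaks. The promoter share was lower by 2.29 points (difference -2.29, interval -3.74 to -0.800), but this interval reached 0 at a stricter IDR, in replicate 1 alone and with promoters of 2 kb. Summits over 100 kb from any 5' end made up 6.48% (5.75 to 7.29), against 11.36% (11.01 to 11.71) elsewhere. Promoter peaks had a median signal of 52.1 on chromosome 11 and 42.8 elsewhere, while peaks in gene bodies had 32.7 and 32.0 and those outside genes 33.1 and 32.7. The higher medians of chromosome 11 thus stood mainly at promoters.

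The replicates were related as on the other chromosomes. The signal of replicate 1 was 1.63 times that of replicate 2 at the median of 3826 peaks (quartiles 1.18 and 2.30), against 1.66 elsewhere. The ratio was 1.47 for promoter peaks and 1.70 and 1.73 for those in gene bodies and outside genes. Spearman's rho across peaks was 0.750 on chromosome 11 and 0.689 elsewhere, among peaks that the IDR filter had already chosen for ranks that repeat. The scaling to depth is not stated, so the ratio says nothing on how much TCF12 was bound.

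Genes of chromosome 11 carried a summit more often than other genes. Of 1571 genes, 1132 had an optimal summit between 10 kb upstream and the 3' end, 72.1%, against a background of 57.2% over all 20923 genes of chromosomes 1 to 19 and X. The share on the other chromosomes alone was 56.0%, a difference of 16.1 points (13.7 to 18.3). It held in each class of gene length, with 56.7% against 37.8% for genes under 10 kb and 85.2% against 65.3% for genes over 100 kb. At promoters, 51.4% of chromosome 11 genes had a summit, against 40.7% of all genes.

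The 8 genes with the most summits spanned from 19.5 kb, at Grap, to 411 kb, at Prkca. Prkca had 40 summits over 411 kb, Septin9 39, Msi2, an RNA-binding protein gene of blood stem cells, 34, Ebf1 34, Ksr1 32, Grap 24, Myo1d, an unconventional myosin gene, 23 and Tbc1d16, a RAB GTPase-activating protein gene, 22. At Ebf1 the strongest summit had a signal of 150, from 107 in replicate 1 and 40.4 in replicate 2, at 45.6 kb inside the gene, and 2 summits lay at its promoter. With overlapping peaks merged, Ebf1 kept 30 summits and Prkca 37.

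Of 24 genes of B cell and germinal centre regulation on the chromosome, 23 carried a summit, beside 72.1% of all its genes, with a median of 7 summits each where the median over all chromosome 11 genes was 2. The group was put together for this description and includes several long genes. Cd79b had 2, the stronger 7 bp upstream of its 5' end with a signal of 209, from 135 in replicate 1 and 74.7 in replicate 2. Ikzf1, the gene of Ikaros, had 21, the strongest 12.6 kb inside the gene at 134. At Mgat1, the gene of an N-glycan branching enzyme, the strongest signal was 308. Irf1, the interferon regulatory factor gene, had a signal of 177 at 51 bp from its 5' end, and Rel, the NF-kappaB subunit c-Rel gene, 143 at 7.92 kb upstream. Xbp1, the plasma cell secretory factor gene, had 133. Lower signals were found at Stat3 (106), at Gna13 (44.2), a G protein gene of germinal centre confinement, and between Stat5a and Stat5b, which share a strongest peak of 41.5 and had no summit at the stricter IDR. Aurkb, the mitotic kinase gene, had no optimal summit and 5 weak ones.

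At the T helper cytokine locus, counted together with Tcf7, which lies outside it, 9 of 13 genes had a summit (69.2%). This is near the 72.1% of all chromosome 11 genes, and Tcf7 was among the 9. Il4, the interleukin 4 gene, had 8, the strongest 394 bp upstream of its 5' end with a signal of 262 from 164 and 99.5 in the replicates. Rad50, a DNA repair gene whose introns hold the locus control region of these cytokines, had 6 with a strongest signal of 165, from 93.5 and 74.6, at 50.3 kb inside the gene. Il13 had 5 with a strongest signal of 79.5, from 49.6 and 27.0. Csf2, the GM-CSF gene, had 1 of 34.3, while Il5, Il3, Slc22a4 and Pdlim4 had none, with 7 to 17 weak peaks each. The stronger signals thus sat at Il4, Irf1 and Rad50, and the genes at the Il3 and Csf2 end had few or none.

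Every gene of the ribosomal and proteasome lists had a promoter summit. These were 7 ribosomal protein genes and 8 genes of the proteasome and ubiquitin, beside 51.4% of all chromosome 11 genes. Further summits lay away from the promoter, and at Rpl19 the strongest, with a signal of 131, lay 4.93 kb inside the gene. Rpl26 had the strongest of the former, 253 from 144 and 117 in the replicates, at 81 bp from the 5' end. Ubb, a ubiquitin gene, had 210 from 125 and 89.3. Psmd3 and Psmd11, subunits of the proteasome lid, had 126 and 140, at 1 bp and 0 bp from their 5' ends, and both were higher in replicate 2 (69.5 against 58.1 and 77.1 against 58.9). Among 14 genes of the cell cycle and apoptosis, 12 had a promoter summit, with 174 at Nme1, a nucleoside diphosphate kinase gene, 162 at Birc5, the survivin gene, and 92.8 at Top2a, the DNA topoisomerase II alpha gene, while Ccnjl had none.

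Nme1 is shown as a promoter peak with E-boxes. Of the RefSeq promoters in the mm10 promoter table (GRCm38.p6, 300 bases around a start), 674 on chromosome 11 held an optimal summit. The 100 bases before the Nme1 start, on the minus strand at chr11:93968273-93968372, are given 5' to 3' with CAGCTG and CACGTG in capitals.
Nme1: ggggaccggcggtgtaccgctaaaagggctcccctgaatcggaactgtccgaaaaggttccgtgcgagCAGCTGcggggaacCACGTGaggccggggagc
CAGCTG or CACCTG was found on either strand in 29.97% (26.6 to 33.5) of the 674 promoters with a summit and in 36.2% (33.9 to 38.5) of the 1615 without, beside 32.9% of all 32851 promoters. CACGTG, the E-box of MYC and USF, was found in 13.5% (11.1 to 16.3) and 6.63% (5.51 to 7.94), and in 7.15% of all. CCGGAAGT, an ETS site, was found in 10.2% (8.17 to 12.8) and 2.11% (1.51 to 2.93), and in 3.89% of all. Base composition was not matched.

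The next groups are clusters and markers of other cell types, to be read beside the 72.1% of all chromosome 11 genes, and the 56.7% of those under 10 kb, that had a summit. No optimal summit was found at the 4 alpha globin cluster genes Hba-a1, Hba-a2, Hbq1a and Hbq1b, each of which had 1 to 7 weak peaks in windows that overlap. Of 25 type I keratin genes of epithelia, 8 had a summit (32.0%), none at a promoter and the strongest 71.9, at Krt28, while Krt14 and Krt19 had none. Of 10 Hoxb genes 3 had one, with signals of at most 34.5 at Hoxb3 and Hoxb4, which share it, and Hoxb1, Hoxb2, Hoxb8 and Hoxb13 were among the 7 with none. At the muscle genes 3 of 7 had a summit, the strongest 83.4 near Sgca, a sarcoglycan gene, and 40.8 at the myosin gene Myh2. At the neural genes it was 3 of 6, with at most 40.4 at Mapt, the tau gene. These genes are short or stand in clusters, and their windows overlap, so a peak can count for several.

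Beside the same 72.1%, the myeloid and Schlafen lists, at 75%, were near the share of all genes, while the chemokine and Cd300 lists had 36.4% and 9.09%. Of genes known from T cells, Tcf7, the gene of the T cell factor TCF1, had a strongest signal of 105, Cd7 of 27.2 and Havcr2 of 23.7. Of the 4 myeloid genes, Mpo, Lpo and Csf3 had 1 summit each with signals of 24.2, 19.98 and 20.9, and Epx had none. Csf3 had none in the strongest peaks of either replicate alone, and Lpo none without replicate 1. Of 11 CC chemokine genes 4 had a summit, the strongest 56.9 near Ccl1 and 48.3 near Ccl5, and Ccl2 and Ccl3 had none. Only 1 of 11 Cd300 receptor genes, Cd300lf with 93.6, had a summit. All of them but Cd300lg, which lies apart, stand in a cluster that borders Rab37 with the strongest peak of the chromosome. In the Schlafen cluster of interferon-induced genes 6 of 8 had one, led by Slfn2 with 145, from 77.7 and 68.8 in the replicates, at 38 bp upstream of its 5' end.

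**Figure D5:**
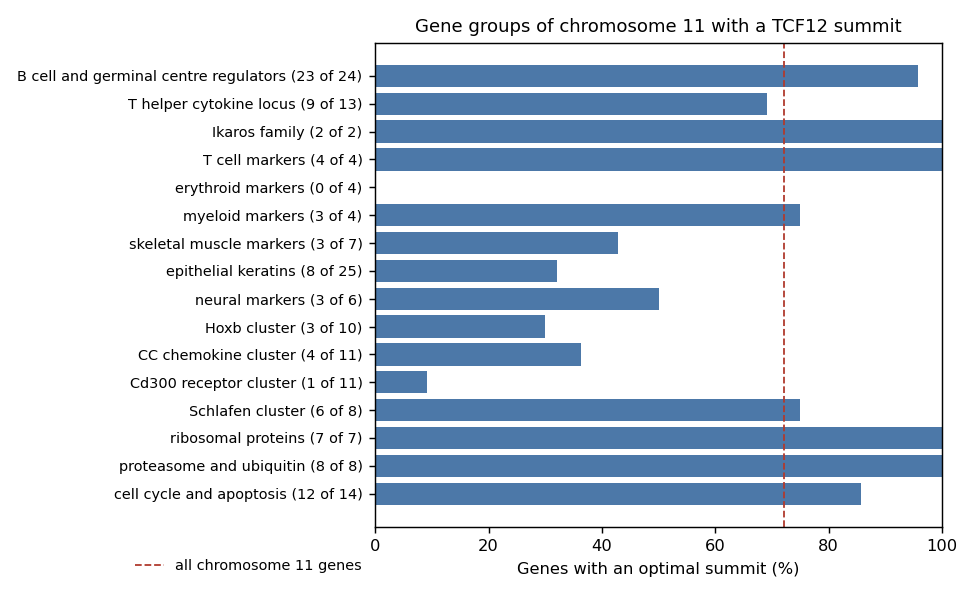
Share of genes with an optimal summit between 10 kb upstream and the 3' end (x axis) in 16 groups of chromosome 11 genes, with the number of genes beside each name and the share over all chromosome 11 genes, 72.1%, as a dashed line. The B cell, Ikaros, T cell, ribosomal, proteasome, cell cycle, myeloid and Schlafen groups lie above the line and the other 8 groups below it.

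The E-box content of the peaks was close to that of the other chromosomes. On mm9, 29.9% (28.2 to 31.7) of the 2648 chromosome 11 peaks held CAGCTG or CACCTG within 50 bp of the summit, against 31.1% (30.5 to 31.7) elsewhere, a difference of -1.16 points (-2.99 to 0.718). Windows 300 bp to either side held one in 12.5%. Outside promoters the share was 38.3% (36.1 to 40.6), against 39.8% elsewhere, and at promoters 13.3% (11.2 to 15.7) against 14.6%. CAGCTG alone was less frequent on chromosome 11, at 13.7% against 15.7%, a difference of -1.92 points (-3.27 to -0.472), while CACCTG was found in 19.3% and 19.1%. The 6 windows printed first, with 4 that hold one, belong to the 353 strongest peaks outside promoters, of which 47.6% (42.4 to 52.8) held one, against 31.5% (26.9 to 36.6) of the 352 weakest. By stretches of 10 Mb, the share outside promoters ran from 28.4% (19.4 to 39.5), between 10 and 20 Mb, to 44.8% (33.5 to 56.6), between 30 and 40 Mb, with intervals that overlap.

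Other motifs were searched on both strands within 50 bp of the summit. CCGGAAGT lay in 4.63% (3.43 to 6.22) of promoter peaks of chromosome 11 and 7.14% (6.57 to 7.76) of those elsewhere, a difference of -2.51 points (-3.86 to -0.821). TGANTCA, the AP-1 site, lay in 8.46% (7.25 to 9.85) of peaks outside promoters against 11.01% (10.50 to 11.55). ATGCAAAT, the octamer of OCT proteins, lay in 3.01% (2.31 to 3.91) of peaks outside promoters and 3.17% of those elsewhere, and in 0.284% of flanking windows on chromosome 11. At promoter peaks it lay in 1.02% (0.535 to 1.92) against 0.473%, a difference of 0.543 points (0.0270 to 1.46). GAGGAAGT, the PU.1 site, differed by -0.975 points (-1.76 to -0.00935) outside promoters. Over all peaks the interval of the difference included 0 for the E-boxes CATCTG, the MYC type CACGTG and the form CAATTG, for GAGGAAGT, the RUNX site TGTGGTTT, the octamer, a motif each of EBF1 and NF-kappaB, and the control word CGATCG. No adjustment over the 13 motifs was made. On mm9, with exons annotated, 6.76% (5.86 to 7.78) of chromosome 11 summits lay in exons and 34.0% (32.2 to 35.8) in introns, against 4.61% and 29.8% elsewhere, and 25.8% (24.2 to 27.5) lay between genes, against 31.3%.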

How the data were processed

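TCF12 ChIP-seq peak lists of 2 replicates of CH12.LX were used. Per the deposited description files, the authors called relaxed peaks on mm10 for each replicate and for both pooled, passed these through IDR to obtain an optimal and a conservative list, and made the mm9 list from 2 mm9 alignments. Aligner and caller were not given in the sources used here. Signal values were deposited as the peak caller gave them, without a stated scaling. The deposited score is a scaled IDR, and the stricter setting kept scores from 830 upward (IDR 0.01). The summit offset, a deposited number of other kind, is in bp. Read depth is unknown.

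Summits were counted in 1-Mb bins. Chromosome length was the end of the last pooled relaxed peak. Gene spans came from RefSeq (GRCm38.p6), with strand from the RefSeq promoter table or, by symbol, GENCODE vM1, which gave 20923 of 21631 protein-coding genes (96.7%). Sequence and exons came from NCBIM37 for mm9 only, and no coordinate was converted. Overlap meant at least 1 bp. Wilson, Newcombe and exact Poisson intervals are at the 95% level, and with 1 group and peaks that are not replicates no p-value was computed. Counting functions were tested on simulated data. Python 3.11.15, pandas 2.3.3 and scipy 1.17.1 were used.

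The chromosome and the gene lists were chosen with earlier results of these data known. Named are the 15 strongest peaks, the 8 fullest bins and runs of empty ones, up to 4 genes in each such bin, the 8 genes with most summits and up to 5 members with and 4 without a summit in each of 16 lists, not all of them printed, and some genes are not reported here. List members named beyond this rule, among them Cd79b, Ikzf1, Irf1, Rel, Xbp1, Stat3, Gna13, Csf2, Psmd3, Psmd11 and Top2a, and the genes shown with sequence were chosen with their values in view. Other settings tried were a stricter IDR, the conservative list, single replicates, merging of overlapping peaks, other bins, promoter and gene windows, reciprocal overlap, and other motif windows.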

Additional observations from a re-analysis of the deposited data

How the results depend on the processing

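The surplus on chromosome 11 kept its size under all alternatives that changed the list. The density ratio was 2.60 at the stricter IDR, 2.58 in the conservative list, 2.53 to 2.64 without 1 replicate and 2.52 with overlapping peaks merged, and the fullest bin stayed that from 117 to 118 Mb in each. With 2-Mb bins the fullest bin held 218 summits and the fullest 10% of bins 22.7% of them. The promoter share was 32.3% at the stricter IDR, 21.0% within 500 bp and 33.3% within 2 kb. Its difference from the other chromosomes was -1.51 points (-3.36 to 0.373) at the stricter IDR, -1.33 (-2.78 to 0.171) without replicate 2 and -0.542 (-2.09 to 1.03) within 2 kb. The share of genes with a summit was 66.2% at the stricter IDR, 68.6% with windows from 5 kb upstream and 61.6% within 5 kb of the 5' end. The median ratio of the replicates' signals was 1.58 at the stricter IDR and 1.56 in the conservative list. The share of relaxed peaks that overlap the list was 9.30% at the stricter IDR and 13.9% to 14.1% without 1 replicate. The E-box share was 17.6% with 25 bp and 42.7% with 100 bp each side of the summit, and its ratio to flanks was 2.60, 1.85 and, with flanks 500 bp away, 2.24, where the main ratio was 2.40. Of 181 chromosome 11 genes in the lists and bins, 16 lost all summits at the stricter IDR, 6 in the conservative list and 4 to 8 without 1 replicate, while 2 without a summit gained one in the conservative list and 5 to 7 without 1 replicate. Hoxb2 and Ccnjl gained one without replicate 1 and Hoxb13 without replicate 2. No paired analysis was possible because the design has 1 group of 2 replicates and nothing to pair. Depth limits are unknown, as the lists give no read counts.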
